A study of Mus musculus with 6 samples.

Results

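The platelet-derived growth factor (PDGF) family was read on 6 Affymetrix mouse arrays hybridized with RNA of mouse embryonic fibroblasts (MEFs), which are connective tissue cells grown in culture. Its members were taken as every probe set whose platform annotation names only 1 of Pdgfa, Pdgfb, Pdgfc, Pdgfd, Pdgfra, Pdgfrb and Pdgfrl. That rule gave 15 probe sets for 7 genes, of 45037 probe sets and 18193 genes measured. The 15 comprise 9 for the ligands, 5 for the receptors and 1 for Pdgfrl. The comparison was between 3 arrays from Atxn3-KO MEFs, which lack the deubiquitinating enzyme ATXN3, and 3 arrays from Atxn3-WT MEFs. It asks how the transcripts of this growth factor system differ when ATXN3 is absent. Both genotypes were cultured in medium with fetal bovine serum, a source of PDGF. The study's methods call the replicates biological. Mouse strain, embryonic age and whether the replicates came from separate embryos or cultures are not given in the sources used here. The spread between these samples may therefore be technical in part. Behind each limma p-value lies this spread, drawn toward a value estimated from all probe sets.

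PDGFs are secreted dimers that drive the growth and migration of fibroblasts and of mural cells, the muscle-like cells around blood vessels. PDGF-A and PDGF-B are made as proproteins cut inside the cell, while PDGF-C and PDGF-D are secreted in a latent form with a CUB domain that proteases remove outside it. The receptor tyrosine kinases PDGFRα and PDGFRβ dimerize on binding. PDGFRα binds PDGF-A, PDGF-B and PDGF-C chains, and PDGFRβ binds PDGF-B and PDGF-D chains. Activated receptors recruit signal proteins with SH2 domains, and in fibroblasts the signal switches on a set of early response genes.

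In Atxn3-KO MEFs, Pdgfd fell (4.44 times higher in Atxn3-WT MEFs), Pdgfa rose 1.53-fold and Pdgfb fell (1.41 times higher in Atxn3-WT MEFs), while Pdgfc did not pass the test. Both receptor genes moved by less, with Pdgfra lower and Pdgfrb higher. At an adjusted p under 0.05 from limma, 4 of the 15 probe sets were higher and 6 were lower, with 5 not passing. Over all probe sets, 26.0% were called, 12.5% higher and 13.5% lower. The 2 genotypes did not overlap for 10 of the 15, beside 41.1% of all probe sets. Only the 2 brighter Pdgfd probe sets passed the thresholds of the study's methods, which ask for an adjusted p of 0.001 or less together with a 2-fold change. Of all probe sets, 1.31% passed these, 0.515% with a lower level. The median log2 difference of the 15 was -0.13, and that of all probe sets was -0.010. By the brightest probe set of each gene, 6 of the 7 genes passed, 2 of them higher and 4 lower, beside 31.8% of all genes. The means of these 7 probe sets lay above those of 66.7% to 92.6% of all probe sets. The share over all genes includes dim genes, so it is not that of genes at a like level. The study's thresholds were passed by 1 of the 7, Pdgfd, beside 1.93% of all genes (0.649% lower).

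**Figure D1:**
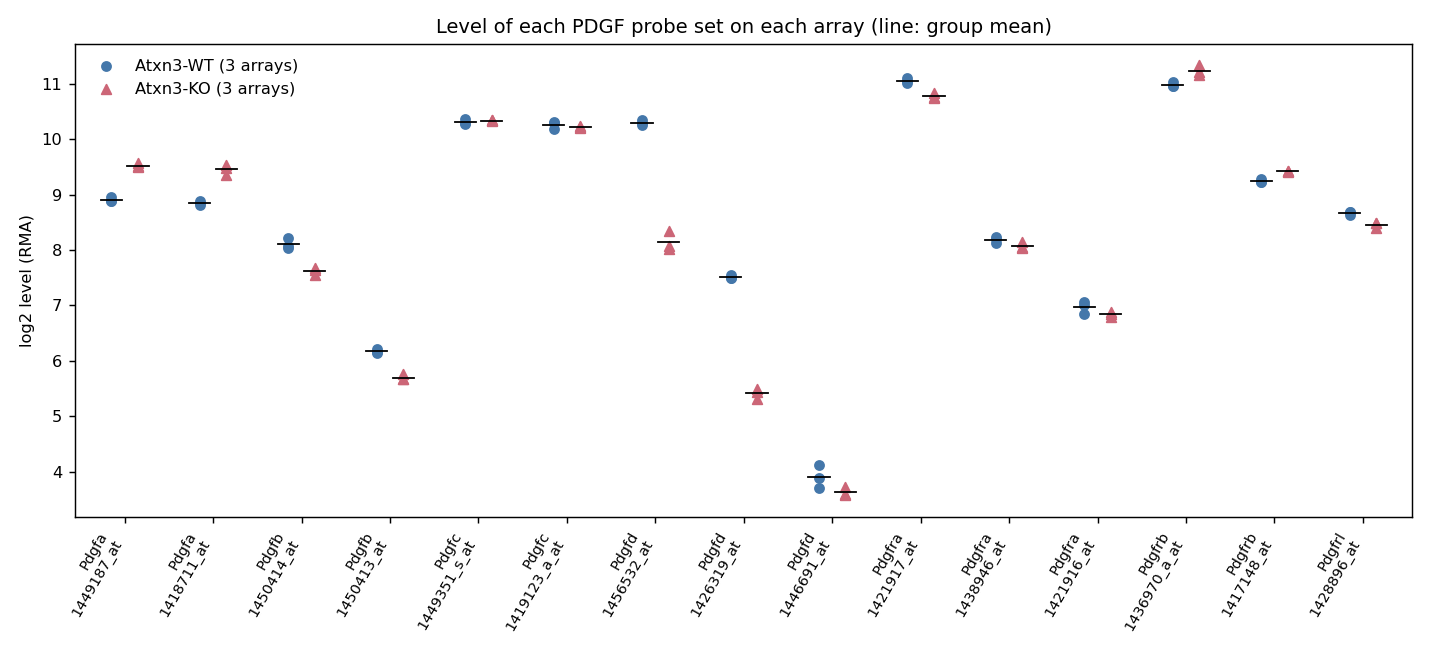
Log2 level (vertical axis, RMA values) of each of the 15 PDGF probe sets on the 3 Atxn3-WT arrays (circles) and the 3 Atxn3-KO arrays (triangles), with a line at each group mean. The groups lie about 2 log2 units apart for the 2 brighter Pdgfd probe sets and overlap for both Pdgfc probe sets. Levels of different probe sets are not comparable with each other.

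Promoter sequence is shown for the ligand that fell most, for the ligand that rose and for the ligand that did not pass the test, since these 3 genes span the range of the family. RefSeq (GRCm38.p6) promoter windows were at hand for 4 of the 7 members, as 5 windows. The 250 bases before each listed start were searched on both strands for the TATA box (TATAAA), the GC box (as GGGCGG), the CCAAT box and the AP-1 site (as TGACTCA). Capitals mark a match. Pdgfd is shown at chr9:6168236-6168362 on the plus strand, up to the base before its earliest RefSeq start. Pdgfc is shown at chr3:81036166-81036415 on the plus strand. For Pdgfa the 30 bases around its matches are shown, chr5:138995016-138995045 on the minus strand, which lie inside the span of longer RefSeq models of the gene.
Pdgfd: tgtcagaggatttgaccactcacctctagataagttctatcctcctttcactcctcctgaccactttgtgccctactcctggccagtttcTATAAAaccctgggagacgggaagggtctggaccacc
Pdgfa: cccagcccCCGCCCtCCGCCCcttccgtcc
Pdgfc: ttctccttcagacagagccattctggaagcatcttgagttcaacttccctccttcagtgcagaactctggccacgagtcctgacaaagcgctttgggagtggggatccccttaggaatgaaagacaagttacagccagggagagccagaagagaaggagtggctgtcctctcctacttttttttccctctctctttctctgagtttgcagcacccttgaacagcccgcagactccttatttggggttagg
The Pdgfd window held a TATA box whose first base lies 160 bases before the listed start and 37 bases before the earliest RefSeq start of the gene. A match at any place in the 250 bases is present in 12.4% of all 32851 promoter windows. The Pdgfa window held 2 GC boxes on the opposite strand, and 32.7% of all windows hold 1 or more. The Pdgfc window held none of the 4 motifs. The other Pdgfa window also held a GC box, and the Pdgfra window held none of the 4. The CCAAT box and the AP-1 site, found in 33.8% and 4.46% of all windows, were in none of the 5. The matches are descriptions of sequence, and binding was not measured.

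PDGF-D, a ligand of PDGFRβ, had the largest change in the family. The brightest Pdgfd probe set, 1456532_at, read 10.25, 10.29 and 10.35 on the log2 scale in Atxn3-WT replicates 1, 2 and 3 and 8.02, 8.07 and 8.35 in Atxn3-KO replicates 1, 2 and 3. All Atxn3-KO arrays were low and the groups were 1.90 log2 units apart at their nearest. The mean fell from 10.30 ± 0.050 to 8.15 ± 0.18 (SD, n = 3 each), a log2 difference, Atxn3-KO minus Atxn3-WT, of -2.15 (standard error, SE, 0.089, adjusted p = 6.61e-06 limma), or a level 4.44 times higher in Atxn3-WT MEFs. In RNA from a whole culture, fewer cells expressing a gene and less RNA per cell cannot be told apart. Of all 45037 probe sets, 38 fell by at least as much. The call and the direction held under every alternative, with log2 differences of -2.25 to -2.09 when 1 array was left out.

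A second Pdgfd probe set, 1426319_at, gave the same picture. Its levels were 7.50, 7.50 and 7.55 in Atxn3-WT MEFs and 5.31, 5.43 and 5.50 in Atxn3-KO MEFs, a log2 difference of -2.10 (SE 0.057, adjusted p = 1.16e-06). Again no arrays overlapped. The within-array difference between these 2 probe sets moved by -0.045 from Atxn3-WT to Atxn3-KO, with overlapping groups (exact permutation test over arrays, 2-sided, p = 0.6, Benjamini-Hochberg adjusted p = 0.6 over 3 such contrasts). The third, 1446691_at, was dim on every array, below the 25th percentile of each. It read 3.70, 3.89 and 4.13 in Atxn3-WT MEFs and 3.58, 3.73 and 3.59 in Atxn3-KO MEFs, and its groups overlapped. Its log2 difference of -0.27 did not pass (adjusted p = 0.106), though it did without Atxn3-WT replicate 1 (-0.37, adjusted p = 0.0328). The mean of the 3 Pdgfd probe sets, the dim one included, had a log2 difference of -1.51 (adjusted p = 1e-05).

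PDGF-C, the other ligand secreted with a CUB domain, differed little between the genotypes. The probe set 1449351_s_at of Pdgfc read 10.27, 10.30 and 10.36 in Atxn3-WT MEFs and 10.34, 10.33 and 10.34 in Atxn3-KO MEFs. The groups overlapped, and the 95% confidence interval of the log2 difference ran from -0.073 to 0.13 (adjusted p = 0.691). For 1419123_a_at the levels were 10.18, 10.31 and 10.29 against 10.21, 10.24 and 10.22, with an interval of -0.15 to 0.076 (adjusted p = 0.63). A change of the size seen for Pdgfa, Pdgfb or Pdgfd lies outside both intervals.

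The 2 classical ligands moved in opposite directions. Pdgfa, which encodes the chain that binds only PDGFRα, read 8.89, 8.89 and 8.95 in Atxn3-WT MEFs and 9.49, 9.51 and 9.57 in Atxn3-KO MEFs for 1449187_at. All Atxn3-KO arrays were high, with a gap of 0.54 log2 units. The log2 difference was 0.61 (SE 0.045, adjusted p = 1.03e-04), or 1.53-fold. The other Pdgfa probe set, 1418711_at, had 8.84, 8.82 and 8.89 against 9.48, 9.36 and 9.53, a log2 difference of 0.61 as well (SE 0.057, adjusted p = 3.19e-04).

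Pdgfb, which encodes the chain that binds both receptors, was lower in Atxn3-KO MEFs. The levels of 1450414_at were 8.04, 8.08 and 8.22 in Atxn3-WT MEFs and 7.64, 7.55 and 7.67 in Atxn3-KO MEFs. All Atxn3-KO arrays were low, by at least 0.37 log2 units. The log2 difference was -0.49 (SE 0.062, adjusted p = 0.00114), a level 1.41 times higher in Atxn3-WT MEFs. A dimmer probe set, 1450413_at, read 6.21, 6.16 and 6.14 against 5.76, 5.67 and 5.67, with a log2 difference of -0.47 (SE 0.048, adjusted p = 4.54e-04). The within-array difference of Pdgfa minus Pdgfb was higher by 1.11 log2 units in Atxn3-KO MEFs, with no overlap of the groups (exact permutation test, 2-sided, p = 0.1, the smallest that 3 arrays against 3 can give, Benjamini-Hochberg adjusted p = 0.15 over 3 contrasts). Since Pdgfa was higher and Pdgfb lower, each without overlap, this outcome followed from the 2 genes and is no further evidence. The calls of Pdgfa and Pdgfb held for all 4 probe sets without each array in turn.

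**Figure D2:**
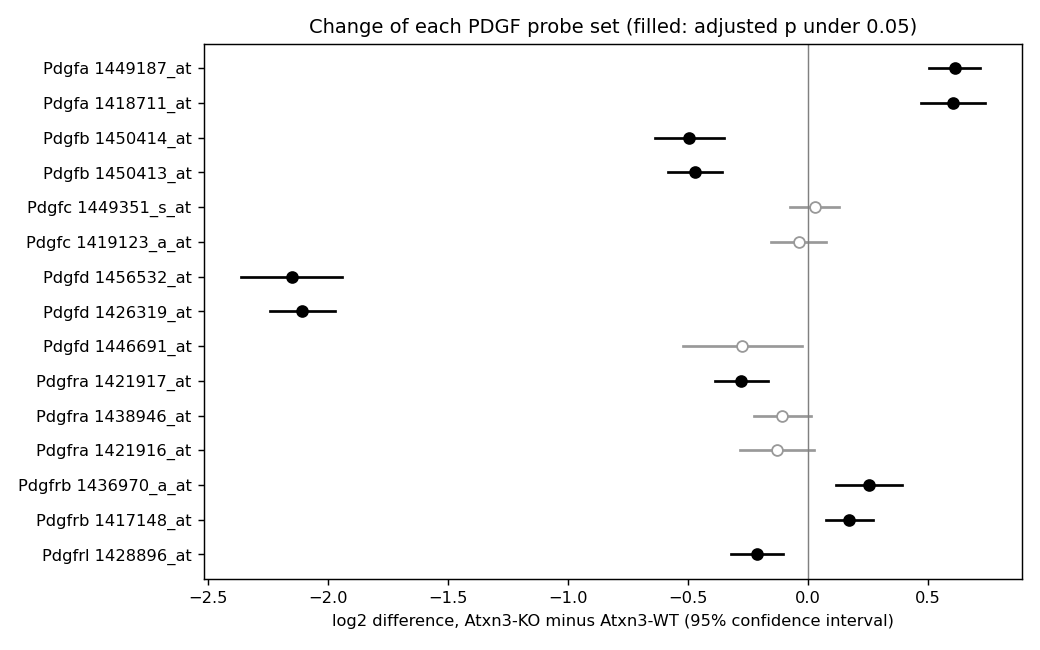
Log2 difference, Atxn3-KO minus Atxn3-WT (horizontal axis), of each PDGF probe set with its 95% confidence interval from limma. Filled points have an adjusted p under 0.05, and open points do not. Pdgfa and Pdgfrb lie above 0, Pdgfb, Pdgfrl, 2 of 3 Pdgfd and 1 of 3 Pdgfra probe sets lie below 0 with filled points, and the intervals of Pdgfc include 0.

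The receptor genes shifted by small amounts in opposite directions. The brightest Pdgfra probe set, 1421917_at, read 11.10, 11.01 and 11.05 in Atxn3-WT MEFs and 10.83, 10.75 and 10.76 in Atxn3-KO MEFs. The groups were 0.19 log2 units apart, and the log2 difference was -0.28 (SE 0.046, adjusted p = 0.00432). The other Pdgfra probe sets had overlapping groups and did not pass. For 1438946_at the log2 difference was -0.11 (95% interval -0.22 to 0.014, adjusted p = 0.185), and for 1421916_at it was -0.13 (95% interval -0.28 to 0.025, adjusted p = 0.208).

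Pdgfrb, a receptor gene of mural cells and fibroblasts, read 10.96, 11.03 and 10.96 in Atxn3-WT MEFs and 11.22, 11.15 and 11.33 in Atxn3-KO MEFs for 1436970_a_at. The Atxn3-KO arrays were all higher, by as little as 0.12 log2 units. The log2 difference was 0.25 (SE 0.059, adjusted p = 0.0171). This call was lost without Atxn3-WT replicate 1 (0.24, adjusted p = 0.0585) and without Atxn3-WT replicate 3 (0.24, adjusted p = 0.0582). For 1417148_at the levels were 9.28, 9.23 and 9.23 against 9.43, 9.40 and 9.43, a log2 difference of 0.17 (SE 0.042, adjusted p = 0.0211). It did not pass without Atxn3-WT replicate 2 or 3 or without any 1 of the Atxn3-KO arrays, with adjusted p-values of 0.0528 to 0.0726. Without Atxn3-WT replicate 3, the number of PDGF probe sets called higher fell from 4 to 2, those of Pdgfa. The within-array difference of Pdgfrb minus Pdgfra, by their brightest probe sets, was -0.14, 0.02 and -0.10 in Atxn3-WT MEFs and 0.40, 0.40 and 0.57 in Atxn3-KO MEFs. These groups did not overlap and differed by 0.53 (exact permutation test, 2-sided, p = 0.1, the smallest possible, adjusted p = 0.15 over 3 contrasts). As these 2 probe sets had each separated the genotypes, in opposite directions, this outcome followed from them and is no further evidence. The dimmer Pdgfra and Pdgfrb probe sets were not compared in this way.

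Pdgfrl encodes a secreted protein related to the extracellular part of the PDGF receptors, without a kinase. Its probe set, 1428896_at, read 8.68, 8.63 and 8.68 in Atxn3-WT MEFs and 8.48, 8.48 and 8.39 in Atxn3-KO MEFs. All Atxn3-KO arrays were low, and the log2 difference was -0.21 (SE 0.047, adjusted p = 0.0145). Without Atxn3-WT replicate 3 the call was lost (-0.20, adjusted p = 0.0519).

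The genes with the profile most like that of Pdgfd were found among all 18193 genes, as those with the smallest mean absolute difference from it over the 6 arrays after each gene's own mean was subtracted. They were Il1rl2, an interleukin 1 receptor family member, at 0.073 log2 units, Crabp1, a retinoic acid binding protein, at 0.075, Vstm5 at 0.076, Coch, the matrix protein cochlin, at 0.11, and Eya1, a transcriptional coactivator and phosphatase, at 0.12. Their log2 differences were -2.01 for Il1rl2, -2.07 for Crabp1, -2.30 for Vstm5, -2.27 for Coch and -2.17 for Eya1. This likeness over 6 arrays in 2 groups reflects mainly the size of the difference between genotypes, since a gene with a like drop has a like profile.

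**Figure D3:**
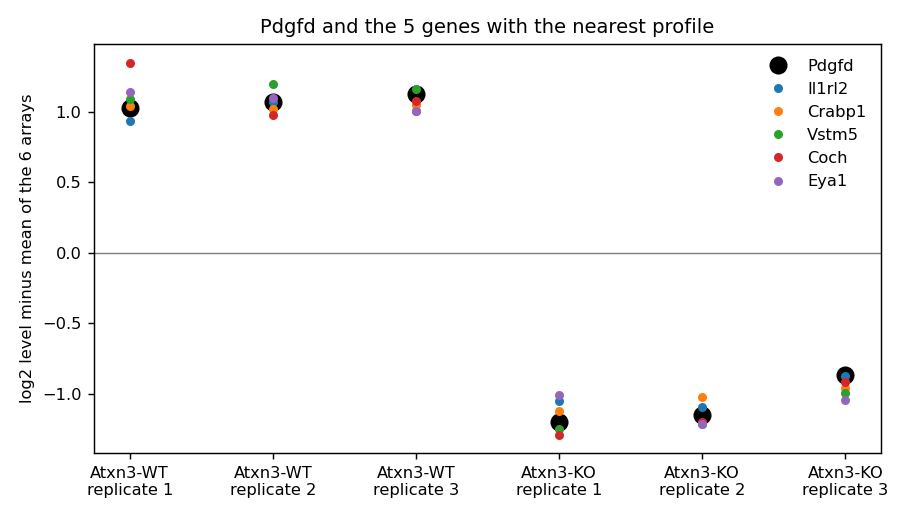
Log2 level minus the gene's mean over the 6 arrays (vertical axis) for Pdgfd (large black points) and the 5 genes nearest to it in profile, on each Atxn3-WT and Atxn3-KO array. All 6 genes lie above 0 on the Atxn3-WT arrays and below 0 on the Atxn3-KO arrays.

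Other genes of the pathway were read from lists arranged by role, each gene by its brightest probe set. Of 84 such genes measured, 25 passed with a higher level in Atxn3-KO MEFs and 11 with a lower one (limma, adjusted p under 0.05). Over all genes, 17.1% were higher and 14.7% were lower. Of the 25 higher genes 17 were early response genes, and of the 11 lower ones 0 were. That list, taken up below, was put together with some results known, so the total does not describe the other lists. The count of lower genes was 7 without Atxn3-WT replicate 2, Atxn3-WT replicate 3 or Atxn3-KO replicate 2. Another 10 listed genes were not analysed here.

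Among 11 genes that process the ligands or set their availability, 3 were higher and 0 were lower, with the same counts at an unadjusted p under 0.05. Nrp1, which encodes the co-receptor neuropilin 1, read 9.94 to 10.05 in Atxn3-WT MEFs and 10.53 to 10.66 in Atxn3-KO MEFs. Its log2 difference was 0.59 (SE 0.055), and its 4 probe sets ranged from -0.095 to 0.64, with 3 called higher and 0 lower. Plaur, the receptor that holds urokinase at the cell surface, had 0.45 (SE 0.049), and Pcsk6, a proprotein convertase, had 0.25 (SE 0.073). Tissue plasminogen activator (Plat) and urokinase (Plau) are among the proteases known to release active PDGF-C and PDGF-D. They had -0.032 (adjusted p = 0.721) and 0.028 (adjusted p = 0.896) and did not pass. St14, another protease of the list, had 0.14 (adjusted p = 0.301). Plat, Plau and St14 were named after their values were seen.

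Among 23 receptor-proximal signal proteins, 3 were higher and 6 were lower. Pik3r1, the regulatory subunit of phosphoinositide 3-kinase that docks on the receptors, had a log2 difference of 0.52 (SE 0.040), and its levels of 10.04, 10.06 and 10.03 lay below the 10.57, 10.55 and 10.57 of the Atxn3-KO arrays. Gab1, a docking protein, had -0.32 (SE 0.046), with all 3 of its probe sets called lower. Slc9a3r1, a scaffold that binds the tail of PDGFRβ, had -0.25 (SE 0.045), and Crkl, an adaptor, had 0.25 (SE 0.047). The 4 Crkl probe sets ranged from -0.15 to 0.29, with 2 called higher and 0 lower. The 4 of Pik3r1 ranged from 0.175 to 0.59, with 3 called higher. Of 18 listed downstream kinases and GTPases, 7 were not analysed. Among the other 11, 1 was higher and 2 were lower. Braf, a kinase of the MAP kinase cascade, had 0.41 (SE 0.071). Nras, a small GTPase, had -0.32 (SE 0.044), and Rac1, a GTPase of cell migration, -0.16 (SE 0.042). The 9 Braf probe sets ranged from 0.052 to 0.41, with 5 called higher and 0 lower. The 3 of Nras ranged from -0.32 to -0.035 and the 3 of Rac1 from -0.18 to -0.069, with 2 called lower for each. The count of lower genes in this list was 1 without any 1 of the 6 arrays.

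Of 16 negative regulators, 1 was higher and 3 were lower, the latter count being 1 without Atxn3-WT replicate 2 and without Atxn3-WT replicate 3. Spred2, an inhibitor of the Ras and MAP kinase route, read 10.84, 10.81 and 10.86 in Atxn3-WT MEFs and 10.39, 10.27 and 10.28 in Atxn3-KO MEFs, a log2 difference of -0.53 (SE 0.049). Spry2, a feedback inhibitor of receptor tyrosine kinases, had -0.30 (SE 0.070). Ptpn12, a tyrosine phosphatase, had -0.19 (SE 0.055). The 5 Spred2 probe sets ranged from -0.545 to -0.081, with 3 called lower. The 4 of Ptpn12 ranged from -0.22 to -0.074, with 2 called lower. Ptprj, a receptor-type phosphatase that acts on PDGFRβ, was the member that rose, with 0.36 (SE 0.042) and 3 of its 4 probe sets called higher. The medians of these 4 lists lay between -0.081 and 0.070, beside 0.0021 over all genes.

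**Figure D4:**
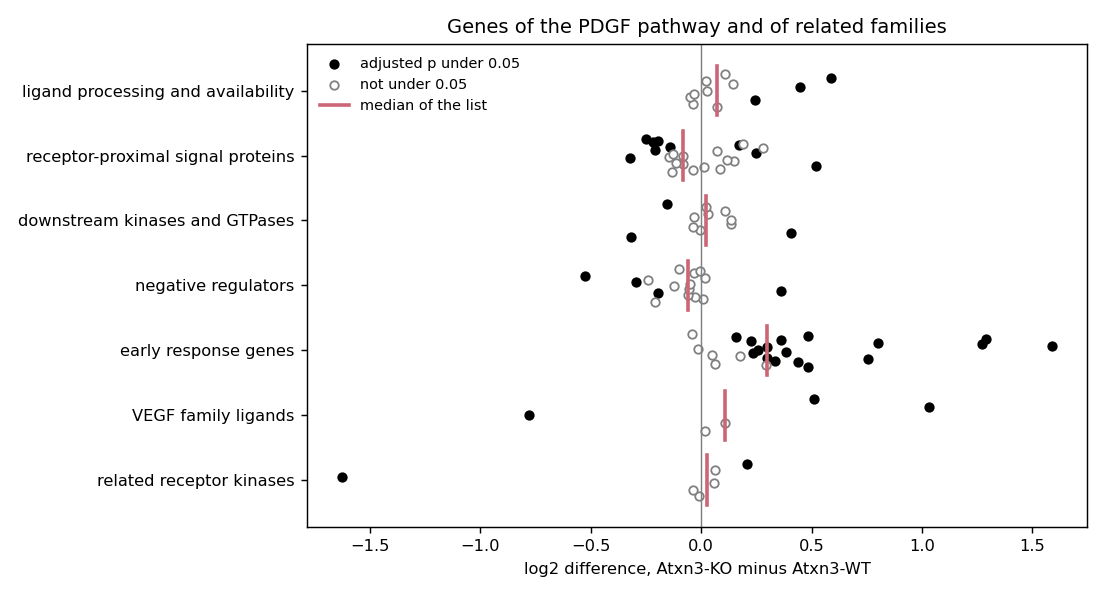
Log2 difference, Atxn3-KO minus Atxn3-WT (horizontal axis), of each measured gene in lists of the PDGF pathway and of related families, filled where the adjusted p (limma) is under 0.05, with a line at each list's median. The early response genes have the highest median, 0.30, and 0 filled points below 0.

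Early response genes are those that growth factors in serum switch on within a short time in fibroblasts. Among the genes listed here as such, every change past the test was upward in Atxn3-KO MEFs. Of 23 such genes, 17 were higher and 0 were lower, with 19 and 0 at an unadjusted p under 0.05. This is 73.9% higher, beside 17.1% of all genes. The median log2 difference was 0.30. Cxcl1, a chemokine for neutrophils that was found as a PDGF-induced gene, read 11.15, 11.10 and 11.16 in Atxn3-WT MEFs and 12.67, 12.72 and 12.79 in Atxn3-KO MEFs, a log2 difference of 1.59 (SE 0.049). Has2, a hyaluronan synthase, read 6.55, 6.19 and 6.58 against 7.67, 7.76 and 7.77, with 1.29 (SE 0.11). Ptgs2, the inducible cyclooxygenase, had 1.27 (SE 0.071), and Zfp36, which destabilizes mRNAs of early genes, had 0.80 (SE 0.087). These 4 had no overlap between groups. The list was put together with results for some of its members known, so its direction is not independent evidence. The counts also depend on where feedback genes were listed. Spry and Dusp genes other than Dusp1 stood among the negative regulators, where Spry2 was lower. Spry1, Spry4, Dusp4, Dusp5 and Dusp6 did not pass there, with log2 differences of -0.052, -0.24, -0.031, -0.0044 and -0.099.

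The transcription factors of this list, named after their values were seen, had smaller log2 differences than these 4. Junb had 0.75 (SE 0.060), Fos 0.48 (SE 0.12), Jun 0.34 (SE 0.043), Egr1 0.30 (SE 0.077) and Myc 0.23 (SE 0.056). For Fos the levels were 10.34, 10.22 and 10.28 in Atxn3-WT MEFs and 10.65, 11.06 and 10.58 in Atxn3-KO MEFs, so that Atxn3-KO replicate 2 stood highest. Fosb, Fosl1, Egr2, Egr3, Srf and Ccn2 did not pass, with log2 differences of 0.30, 0.064, 0.17, 0.047, -0.015 and -0.041. The number called higher was 11 without Atxn3-WT replicate 1, 11 without Atxn3-WT replicate 2 and 13 or 14 without each of the other arrays. Many of these genes also respond to other serum factors and to stress, and PDGF receptor activity was not measured.

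**Figure D5:**
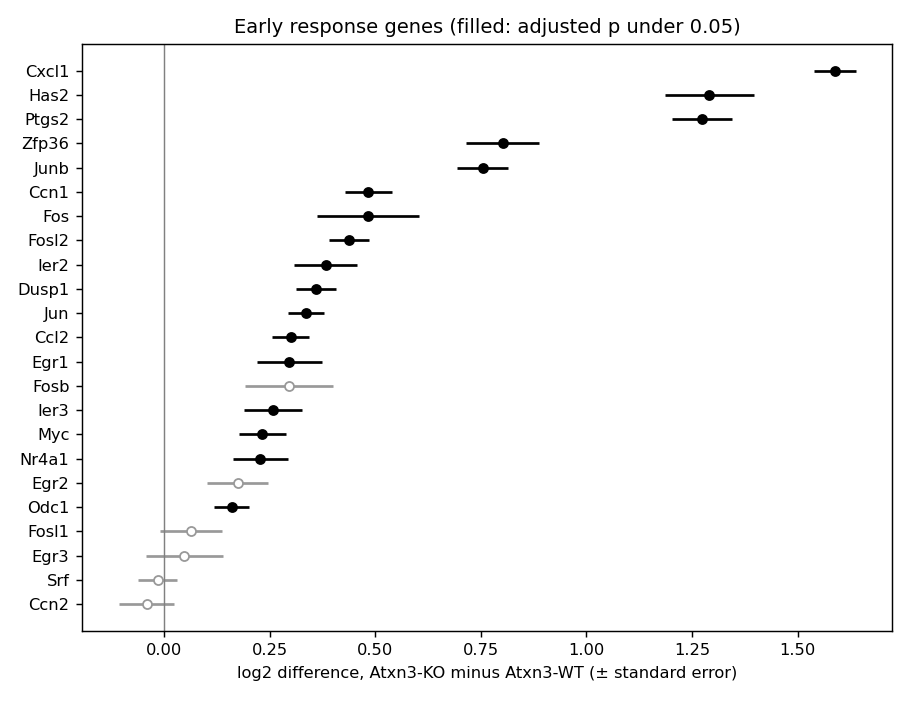
Log2 difference, Atxn3-KO minus Atxn3-WT (horizontal axis), of each of the 23 early response genes with its SE (limma). Filled points have an adjusted p under 0.05, all 17 of them above 0, and Cxcl1, Has2 and Ptgs2 lie farthest to the right.

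The nearest relatives of the family moved in both directions. Of the 5 ligands of the vascular endothelial growth factor (VEGF) family, which share the cystine knot fold of PDGFs, 2 were higher and 1 was lower. Among all genes the shares were 17.1% higher and 14.7% lower. Vegfd had a log2 difference of 1.03 (SE 0.047), Pgf, placental growth factor, 0.51 (SE 0.065) and Vegfc -0.78 (SE 0.050). Of 6 receptor kinases with a like build, Flt1, a VEGF receptor, fell with -1.63 (SE 0.042). Flt4, the receptor of Vegfc and Vegfd, rose with 0.21 (SE 0.052), with a gap of 0.08 log2 units between the groups. The other Flt4 probe set had 0.22 and was not called. The other 4, Kit, Csf1r, Flt3 and Kdr, did not pass, with log2 differences between -0.037 and 0.063.

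The arrays and cells were checked as follows. Arrays of one genotype correlated at 0.998 to 0.999, and arrays of different genotypes at 0.993. Atxn3 itself read 6.53 to 6.81 on the Atxn3-WT arrays and 3.43 to 3.73 on the Atxn3-KO arrays by its brighter probe set. Those Atxn3-KO levels were under the 25th percentile of each array, so the size of the drop is uncertain. Its dimmer one had -0.35 (adjusted p = 0.117), with overlapping groups. The sources used here do not place either of them relative to the deletion. For the marker counts that follow, the shares over all genes were 17.1% higher and 14.7% lower. Of 10 fibroblast markers, 3 were higher and 5 were lower. Lum, 1 of the 3 higher, was under the 25th percentile on 5 of the 6 arrays, so its size is uncertain. Vim, the fibroblast intermediate filament vimentin, read 13.77 to 13.82 over all arrays, while Thy1, a fibroblast surface protein, had a log2 difference of -4.21 and Dcn, the proteoglycan decorin, of 1.91. The other Dcn probe set had 0.21 and was not called. Of 8 endothelial markers, 0 passed in either direction at an adjusted or an unadjusted p under 0.05, and on every array Tek, Tie1, Emcn and Vwf were under the 25th percentile. Of 8 macrophage markers, 0 passed (2 higher and 0 lower at an unadjusted p under 0.05), and 3 lay below that percentile on every array. Of 5 megakaryocyte and platelet markers measured, 2 were higher, Ppbp with 1.57, from Atxn3-WT levels under that percentile and so of uncertain size, and Gp1bb with 0.55, whose other probe set had 0.0058, while Pf4 had -0.052 (adjusted p = 0.735). Of 7 epithelial markers, 2 were higher (3 higher and 0 lower at an unadjusted p under 0.05), Krt18 with 1.27 and Epcam with 0.38. The Atxn3-WT levels of Krt18, 4.31 to 4.40, lay at about the 25th percentile, so its size is uncertain. The other Epcam probe set had 0.12 and was not called. Cdh1 was under the 25th percentile on all 6 arrays. Krt19 was bright, at 9.18 to 9.71 over all arrays, and had 0.28 with overlapping groups (limma, adjusted p = 0.0974). Krt5, Krt8 and Krt14 did not pass either. Of 7 glial and neural markers measured, Map2 was higher with 1.55 and Tubb3 was lower with -0.95.

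Among markers of mural cells, where PDGFRβ is a defining receptor, fewer than the full list passed, and those that did were higher. Of 10 such markers, 4 were higher and 0 were lower, with 5 and 1 at an unadjusted p under 0.05. This is 40.0% higher, beside 17.1% of all genes, and 14.7% of all genes were lower. Notch3, a Notch receptor, had a log2 difference of 0.74 (SE 0.061) and Acta2, smooth muscle actin, 0.69 (SE 0.042). The summed linear level of the 10 markers was 19244 to 19598 on the Atxn3-WT arrays and 26234 to 26789 on the Atxn3-KO arrays. Acta2 and Tagln, another smooth muscle gene, made up 88.0% to 90.1% of this sum, so it describes mainly these 2 genes. The other 8 markers summed to 2305 to 2338 and 2649 to 2751. Levels of different probe sets are not comparable, and bright ones weigh most, so neither sum describes the markers as a set. The others that passed, Cspg4 and Tagln, had 0.32 and 0.26. Kcnj8 and Abcc9, which mark pericytes, were under the 25th percentile on all 6 arrays, and Rgs5 had 0.30 (adjusted p = 0.0618). Mcam leaned lower without passing, with -0.12 (adjusted p = 0.069). Des with -0.026 and Myh11 with 0.024 did not pass either. The part of these markers in the result for Pdgfrb was not tested.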

How the data were processed

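For each of 45101 probe sets the authors deposited a log2 value from RMA (robust multi-array average). RMA corrects background, quantile-normalizes the arrays and sums up the probes of each probe set, so a shift shared by all genes would be removed. RMA and limma are named in the submitters' processing notes, both without a version. From these values, with 64 control probe sets left out, limma 3.58.1 in R 4.3.3 (lmFit and eBayes, equal array weights, no filter) estimated Atxn3-KO minus Atxn3-WT, with Benjamini-Hochberg adjustment over 45037 probe sets. The study's methods name a weighted linear model without its weights. A gene is represented by the probe set with the highest mean that names it alone. Differences between 2 probe sets of an array were compared by an exact permutation test. The fit was tested on simulated data.

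Named were all members, up to 4 genes per pathway list and up to 2 per marker list with the largest change at an adjusted p under 0.05, and the 5 genes nearest to Pdgfd in profile. Other genes of the lists that the text names, such as Vim, the dim markers and those given as not passing, were chosen after their values were seen. Where no gene of a list passed, the brightest was to be named, and for the endothelial and macrophage lists these were Esam (log2 difference -0.014) and Cd14 (0.057). The members and lists were chosen with earlier results of these data known. The alternatives left out each array, added array weights or a replicate block, normalized again, dropped low probe sets, or changed the variance model or probe set rule. With 6 arrays, their number limits the precision.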

Additional observations from a re-analysis of the deposited data

How the results depend on the processing

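For the 10 PDGF probe sets called at an adjusted p under 0.05, 144 alternative values were computed, of which 134 kept direction and call, 10 lost the call and 0 changed direction. The losses were those of Pdgfrb and Pdgfrl, and 7 of the 10 probe sets kept their call throughout. Without eBayes moderation, 1 in place of 2 PDGF probe sets passed the study's thresholds, and the brighter Pdgfrb probe set had an adjusted p of 0.0554. Without each array in turn, 2 to 3 PDGF probe sets were higher, 5 to 7 were lower and 2 passed the study's thresholds, while 17 to 21 pathway genes were higher and 7 to 9 were lower. The mean of both Pdgfc probe sets had a log2 difference of -0.0049 (adjusted p = 0.954), against 0.029 for the brightest, neither of them past the threshold. Downstream kinases and GTPases that were higher numbered 3 in place of 1 without low probe sets and with an intensity trend, where 5 in place of 3 receptor-proximal genes were higher, and 2 with array weights, median centring, no eBayes moderation or the most variable probe set. Without eBayes moderation 1 negative regulator was lower in place of 3. The 17 early response genes were 11 without eBayes moderation, and 0 were lower under any alternative run.

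Same-numbered arrays of the 2 genotypes did not deviate together (correlations of 0.021, -0.023 and -0.036), so the numbers were not taken as pairs. With the replicate block, 7 pathway genes were lower in place of 11, 1 of them a downstream kinase or GTPase in place of 2, and the dimmer Pdgfrb probe set lost its call (adjusted p = 0.0576). The deposited values used here carry no detection calls, so values below the 25th percentile of an array are read as dim, and small changes of such probe sets, as of the third Pdgfd probe set, are not exact.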
